A study of Saccharomyces cerevisiae with 12 samples.

Results

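The cell wall integrity kinase gene SLT2, its transcription factor gene RLM1 and 8 genes of wall proteins were followed in budding yeast given doxycycline to lower RAP1. The 10 genes were chosen by symbol, with the wall protein genes taken as targets of SLT2 and RLM1. Of the 10 genes, 9 are among the 5085 genes of each table. The level of PIR1 was not analysed here, and its upstream sequence was. The samples came from groups grown with 0.01, 0.1 or 0.5 µg/mL doxycycline and from a control group, with 3 samples in each of the 4 groups and 12 in all. All of them are the MATa strain TH_5234 in log phase, carrying his3-1, leu2-0 and met15-0, a tetO7-TATA promoter with the kanR marker at RAP1 and the CMV-tTA activator at URA3. Every group thus carries the tetracycline-repressible promoter and the activator, and the effect of doxycycline itself and that of lowered RAP1 cannot be told apart. Whether replicates were separate cultures is not said in the labels.

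The yeast wall is a mesh of glucan and chitin covered by mannoproteins. When it is weakened, sensors in the plasma membrane act through exchange factors on the GTPase Rho1 and the kinase Pkc1, which starts a kinase cascade that ends in Slt2, a MAP kinase. Slt2 phosphorylates Rlm1, a MADS-box factor that activates genes of wall proteins and wall enzymes. Slt2 also acts on the Swi4 and Swi6 proteins, and several phosphatases take its phosphates off again.

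Each level is 1 FPKM value (fragments per kilobase of transcript, scaled to sequencing depth) that the authors pooled over a group, so no SD can be given and the depth behind it is unknown. A gene was called higher or lower where the authors' q, a p-value adjusted over all genes, was below 0.05. These q-values measure the spread among the samples of this series, which could be technical. RAP1 itself had 33.3 FPKM at 0.01 µg/mL against 31.7 FPKM in the control (q = 0.827), 31.0 against 31.5 FPKM at 0.1 µg/mL (q = 0.935) and 22.0 against 31.5 FPKM at 0.5 µg/mL (q = 0.00764), all in the authors' deposited tables. A lower RAP1 mRNA was therefore called at 0.5 µg/mL and not at the other 2 doses, and doses below follow the labels. Over all tested genes the median log2 fold change was -0.08, -0.03 and -0.30 with rising dose. Relative to that median the log2 fold change of RAP1 at 0.5 µg/mL was -0.22, against -0.52 as deposited. At that dose 67.2% of tested genes lay above RAP1 and 38.9% were called lower. LEU2 and MET17 (MET15) were listed at 0 in every group, while HIS3, which the genotype also gives as mutated, had 211, 215 and 192 FPKM with rising dose, against 267, 266 and 266 FPKM in the controls of the authors' deposited tables. The MATa genes MFA1 and STE2 stood at 122401 and 1407 FPKM in controls by the authors' deposited table for 0.01 µg/mL. Of these strain checks URA3, where the activator sits, fell at all 3 doses (log2 fold changes -0.59, -0.65 and -1.16), MFA2 at 0.01 and 0.5 µg/mL (-0.45 and -0.48) and STE2 at 0.5 µg/mL (-0.91).

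The Rlm1 binding consensus is CTA, then 4 bases that are each A or T, then TAG. It was looked for on both strands in the 600 bp before the start codon in the RefSeq R64 assembly, and 7 of the 10 genes held it. Of 6005 such windows in the genome, 124 held it, which is 2.06%. Because the wall genes were chosen as targets of SLT2 and RLM1, a high share among them is partly built into the choice. The 7 matches are shown because these letters are what most of the genes share upstream, on the strand of the gene, with the consensus in capitals and 20 bases on each side. Their places, with these 20 bases on each side included, are chrXVI:381429-381478 for RLM1, chrIV:563202-563251 for PST1, chrXI:260726-260775 for CWP1, chrX:120206-120255 for HSP150, chrXI:144101-144150 for PIR3, chrIV:600293-600342 for SED1 and chrVII:1058914-1058963 for BGL2. RLM1 and BGL2 lie on the minus strand and the others on the plus strand.
RLM1: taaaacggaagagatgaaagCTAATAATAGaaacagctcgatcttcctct
PST1: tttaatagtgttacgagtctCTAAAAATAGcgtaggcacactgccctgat
CWP1: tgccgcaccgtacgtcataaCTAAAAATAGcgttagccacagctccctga
HSP150: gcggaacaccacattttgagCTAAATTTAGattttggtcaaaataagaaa
PIR3: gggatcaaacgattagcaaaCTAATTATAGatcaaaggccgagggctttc
SED1: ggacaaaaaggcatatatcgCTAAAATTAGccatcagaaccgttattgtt
BGL2: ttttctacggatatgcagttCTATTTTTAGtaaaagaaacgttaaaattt

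The consensus began 308 bp before the start codon in RLM1, 305 bp in PST1, 386 bp in CWP1, 223 bp in HSP150, 280 bp in PIR3, 480 bp in SED1 and 219 bp in BGL2. PST1 and CWP1 held the same 10 bases, and the RLM1 gene held the consensus of its own product. SLT2, CRH1 and PIR1 held no full consensus in this window. They did hold a match that lacks only its first base, a motif tried after the data were seen. That shorter motif is common, at 24.6% of all windows, and all 10 genes had it. Its match upstream of SLT2 lies at chrVIII:170548-170596 and those upstream of CRH1 at chrVII:878522-878570 and chrVII:878379-878427, all on the minus strand, again with the matching bases in capitals.
SLT2: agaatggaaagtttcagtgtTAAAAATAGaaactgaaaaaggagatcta
CRH1, far match: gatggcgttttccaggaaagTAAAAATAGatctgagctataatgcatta
CRH1, near match: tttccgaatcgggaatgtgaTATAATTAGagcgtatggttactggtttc

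Other motifs were searched in the same windows, on both strands. The heat shock element GAANNTTC lay upstream of SLT2 and CRH1, while 22.8% of all windows held it. The stress element AGGGG lay upstream of 5 of the 10 genes (CWP1, PIR1, HSP150, PIR3 and SED1), against 39.7% of all windows. CGCGAAA, a site of the Swi4 and Swi6 factor SBF, was found upstream of CWP1 only, against 6.44% of all windows. The Rap1 consensus with at most 1 mismatch was found upstream of 0 of the 10 genes and in 3.45% of all windows. Such matches describe the letters in these windows and do not show binding.

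**Figure D1:**
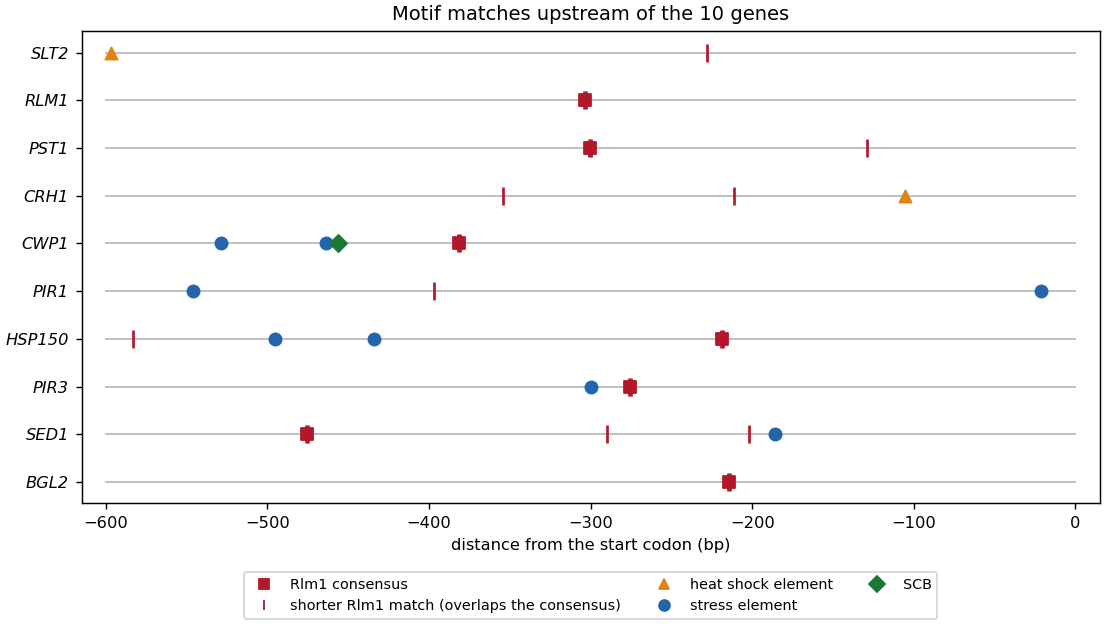
Motif matches in the 600 bp upstream of the 10 genes; the x axis gives the distance from the start codon in bp and each symbol is 1 match on either strand. Squares mark the full Rlm1 consensus, which 7 genes hold, and bars the shorter match, which all 10 hold.

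SLT2, the MAP kinase gene (YHR030C, chromosome VIII, 168890 to 170344 in R64), rose most of the 9 genes at each dose. In the authors' deposited tables it had 502 FPKM at 0.01 µg/mL, 749 FPKM at 0.1 µg/mL and 581 FPKM at 0.5 µg/mL, against 207 FPKM in the control of each table. The rises were 2.42-fold, 3.62-fold and 2.81-fold (q = 0.000608, 0.000329 and 0.000273, the smallest q of each of the authors' deposited tables). SLT2 ranked 85th, 66th and 64th from the top among 5049, 5054 and 5047 tested genes. The middle dose gave its highest level. In bulk cultures a change in RNA per cell and one in the share of cells of some kind cannot be told apart.

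RLM1, the gene of the factor that Slt2 activates (YPL089C, chromosome XVI, 379120 to 381150), was the least abundant of the 9 genes in every group and also rose at each dose. Its level was 89.9 FPKM at 0.01 µg/mL against 55.2 FPKM in the control, 113 against 55.0 FPKM at 0.1 µg/mL and 85.0 against 55.0 FPKM at 0.5 µg/mL in the authors' deposited tables. These are rises of 1.63-fold, 2.06-fold and 1.55-fold (q = 0.000608, 0.000329 and 0.00231 in the authors' deposited tables). On the log2 scale SLT2 changed by 1.28, 1.86 and 1.49 and RLM1 by 0.70, 1.04 and 0.63. The kinase gene thus had the larger value at each dose, a difference that could not be tested on pooled levels.

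Counting both regulators and the wall genes, 8 of the 9 genes were called higher at each of the 3 doses, and 0 were called lower. Among all tested genes 8.75% were called higher at 0.01 µg/mL, 17.6% at 0.1 µg/mL and 7.49% at 0.5 µg/mL. The shares called lower were 15.4%, 20.4% and 38.9%. The 9 genes were chosen with earlier results of these data known, so their share called higher is no test of the pathway. The median log2 fold change of the 9 genes was 0.84, 1.13 and 1.03. CWP1 was the gene not called at any dose.

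PST1 and CRH1 encode proteins of the wall that are classic readouts of the pathway. PST1 (YDR055W, chromosome IV, 563527 to 564861), a GPI-anchored wall protein, had 672 FPKM at 0.01 µg/mL against 355 FPKM in the control in the authors' deposited table. At 0.1 and 0.5 µg/mL it had 803 and 680 FPKM, against 354 FPKM in the control of either of the authors' deposited tables. Its rises of 1.89-fold, 2.27-fold and 1.92-fold were all called (q = 0.00161, 0.000329 and 0.000273 in the authors' deposited tables). CRH1 (YGR189C, chromosome VII, 876669 to 878192), a transglycosylase that joins chitin to glucan, rose least of the 8 genes called at each dose. It had 875, 971 and 819 FPKM with rising dose, against 569.7, 568 and 567 FPKM in the controls of the authors' deposited tables. The rises of 1.54-fold, 1.71-fold and 1.44-fold had q-values of 0.0413, 0.00114 and 0.0437 in the authors' deposited tables, so that the lowest and highest doses were near the threshold.

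The PIR genes encode wall proteins with internal repeats that are bound directly to glucan. PIR3 (YKL163W, chromosome XI, 144401 to 145378) had 365 FPKM at 0.01 µg/mL against 169 FPKM in the control, and 444 and 448 FPKM at the higher doses against 168 FPKM in both controls, in the authors' deposited tables. It ranked next to SLT2 in size of rise at each dose, at 2.17-fold, 2.64-fold and 2.67-fold (q = 0.000608, 0.000329 and 0.000273 in the authors' deposited tables). HSP150, also called PIR2 and known as heat inducible (YJL159W, chromosome X, 120449 to 121690), had 3348, 4075 and 4038 FPKM with rising dose, against 1873, 1868 and 1866 FPKM in the controls of the authors' deposited tables. It rose 1.79-fold, 2.18-fold and 2.16-fold (q = 0.0293, 0.000329 and 0.000951 in the authors' deposited tables). Both genes were thus higher at all 3 doses, and PIR1, the close relative beside PIR3, has no level here. Of the stretches of 50 bases in the PIR3 coding sequence 6.46% also occur elsewhere in the genome, and of those in HSP150 1.34%, so a part of their reads could have been shared with relatives. For the other 7 genes with a level this share was 0%, and no gene in the RefSeq R64 annotation overlaps any of the 10.

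CIS3 and PIR5, the other PIR genes beside HSP150, were not called higher at any dose. CIS3, from the list of other wall mannoproteins, was not called, with log2 fold changes of -0.03, -0.13 and -0.17. PIR5, named after its values were seen as the neighbour on the other side of HSP150, was not called at 0.01 µg/mL (-0.36, q = 0.269) and fell at 0.1 µg/mL (-0.87, q = 0.000329) and 0.5 µg/mL (-0.83, q = 0.00301), by the authors' deposited tables. Of the neighbours of PIR3 with a level, KDX1 rose at all 3 doses (0.63, 1.02 and 0.64) and MCD4 fell at 0.1 and 0.5 µg/mL (-0.50 and -0.72), with -0.39 at 0.01 µg/mL (q = 0.0522 in that one of the authors' deposited tables). SLT2 lay between YHI9 (-0.47, -0.60 and -0.95) and RRM3 (-0.68, -0.85 and -1.36), which both fell at all 3 doses. The nearest genes with a level on either side of RLM1 were RPS6A and YDC1, which need not be directly beside it. RPS6A fell at all 3 doses (-1.09, -1.32 and -1.47), and YDC1 rose at all 3 (0.70, 1.05 and 0.47).

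SED1, BGL2 and CWP1 complete the wall genes. SED1 (YDR077W, chromosome IV, 600793 to 601809), a GPI-anchored protein that is abundant in the wall of stationary cells, had the highest level of the 9 genes in every group. It stood at 9275 FPKM at 0.01 µg/mL against 4850.1 FPKM in the control, 10862 against 4837 FPKM at 0.1 µg/mL and 12147 against 4831 FPKM at 0.5 µg/mL in the authors' deposited tables. These rises of 1.91-fold, 2.25-fold and 2.51-fold (q = 0.0195, 0.000329 and 0.000273 in the authors' deposited tables) were larger at each higher dose, an order that was not tested. BGL2 (YGR282C, chromosome VII, 1057783 to 1058724), a glucanase of the wall, had 5471, 7098 and 6602 FPKM with rising dose, against 3253, 3242 and 3239 FPKM in the controls of the authors' deposited tables. Its rises were 1.68-fold, 2.19-fold and 2.04-fold (q = 0.0342, 0.000329 and 0.00136 in the authors' deposited tables).

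CWP1 (YKL096W, chromosome XI, 261132 to 261851), a mannoprotein placed at the birth scar, stood apart. It had 298 FPKM at 0.01 µg/mL against 277 FPKM in the control, 255 against 276 FPKM at 0.1 µg/mL and 207 against 276 FPKM at 0.5 µg/mL in the authors' deposited tables. The log2 fold changes of 0.10, -0.11 and -0.42 were not called (q = 0.768, 0.684 and 0.0664 in the authors' deposited tables). Relative to the median of all tested genes the value at 0.5 µg/mL was -0.11. CWP1 holds the same Rlm1 consensus as PST1, and its neighbour CWP2, another wall mannoprotein, was not called either (0.07, 0.17 and 0.40).

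**Figure D2:**
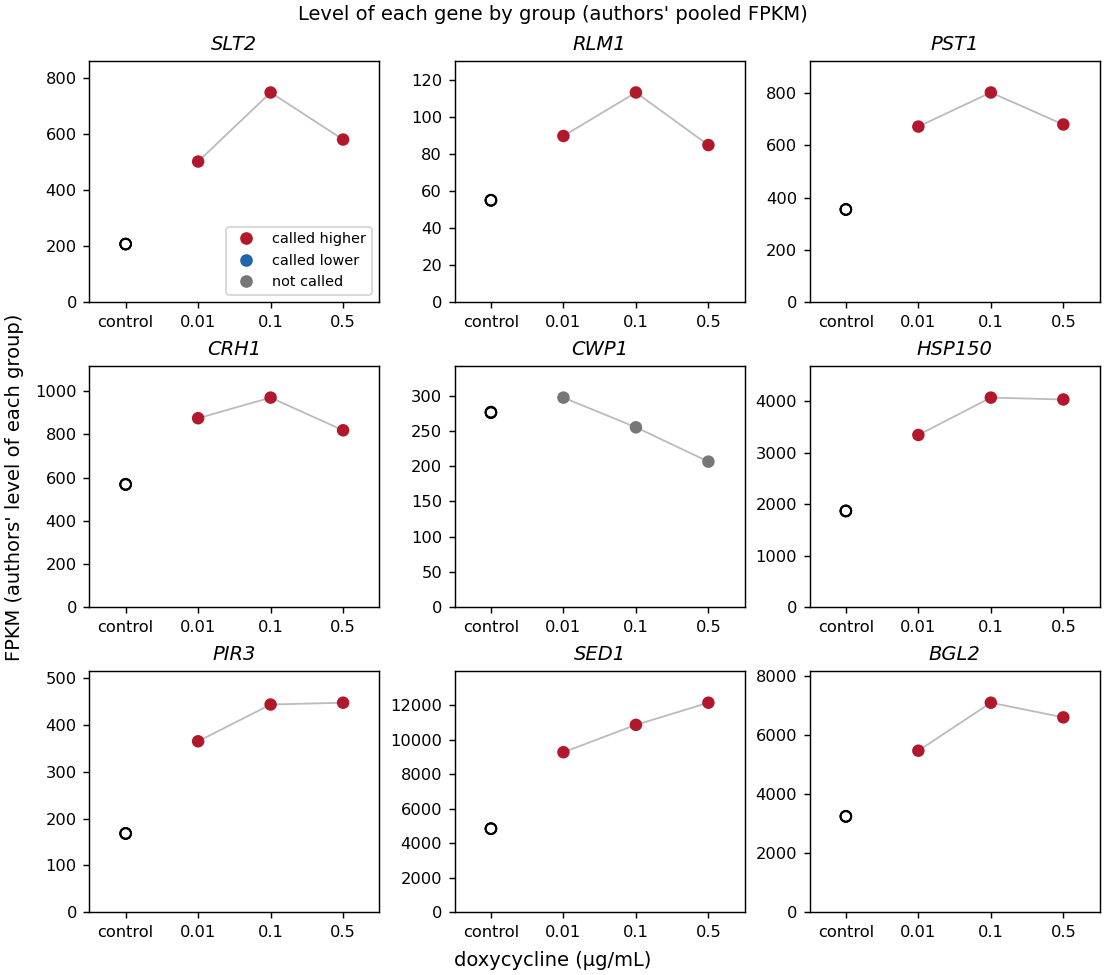
Level of each of the 9 genes (y axis, authors' pooled FPKM from 0) in the control group and at 0.01, 0.1 and 0.5 µg/mL doxycycline; open circles are the control columns of the 3 tables, filled circles the dose groups, red where called higher and grey where not called. SLT2 reaches 749 FPKM at 0.1 µg/mL against 207 FPKM in the control, and CWP1 stays between 207 and 298 FPKM at the 3 doses.

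Set side by side, the 9 genes followed the dose in different ways. As deposited, SLT2, RLM1, PST1, CRH1, HSP150 and BGL2 had their largest rise at 0.1 µg/mL, and PIR3 and SED1 at 0.5 µg/mL. Counted from the median of all tested genes, which moved by -0.30 at 0.5 µg/mL, PST1, CRH1, HSP150 and BGL2 also had their largest value at 0.5 µg/mL. SLT2 (1.88 and 1.80 at 0.1 and 0.5 µg/mL) and RLM1 (1.07 and 0.93) kept it at 0.1 µg/mL on that scale. With each group's levels rescaled to a common sum, PST1 (1.22 and 1.16) and CRH1 (0.81 and 0.75) again had it at 0.1 µg/mL. The tables were scaled separately and hold pooled levels, so differences between doses were not tested.

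By level per length, the control order was SED1, BGL2, HSP150, CRH1, PST1, CWP1, SLT2, PIR3 and RLM1. Their spread over samples is not known, so it cannot be said which neighbours in it differ. At all 3 doses SLT2 and PIR3 stood above CWP1, at 581 and 448 FPKM against 207 FPKM for CWP1 at 0.5 µg/mL. The 9 genes together made up 1.16%, 1.34% and 1.53% of the summed FPKM of all genes at the 3 doses, against 0.594%, 0.595% and 0.595% in the controls. The sum over the 9 genes was 1.80, 2.19 and 2.21 times that of the control, and SED1 was its largest part.

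Within the distribution of all tested genes, the 8 genes called higher lay in the upper tail at every dose. CRH1 was the lowest of them, with 5.45%, 7.18% and 6.56% of tested genes above it, and SLT2 the highest, with 1.66%, 1.29% and 1.25% above it. CWP1 had 29.6%, 57.8% and 59.2% of tested genes above it.

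**Figure D3:**
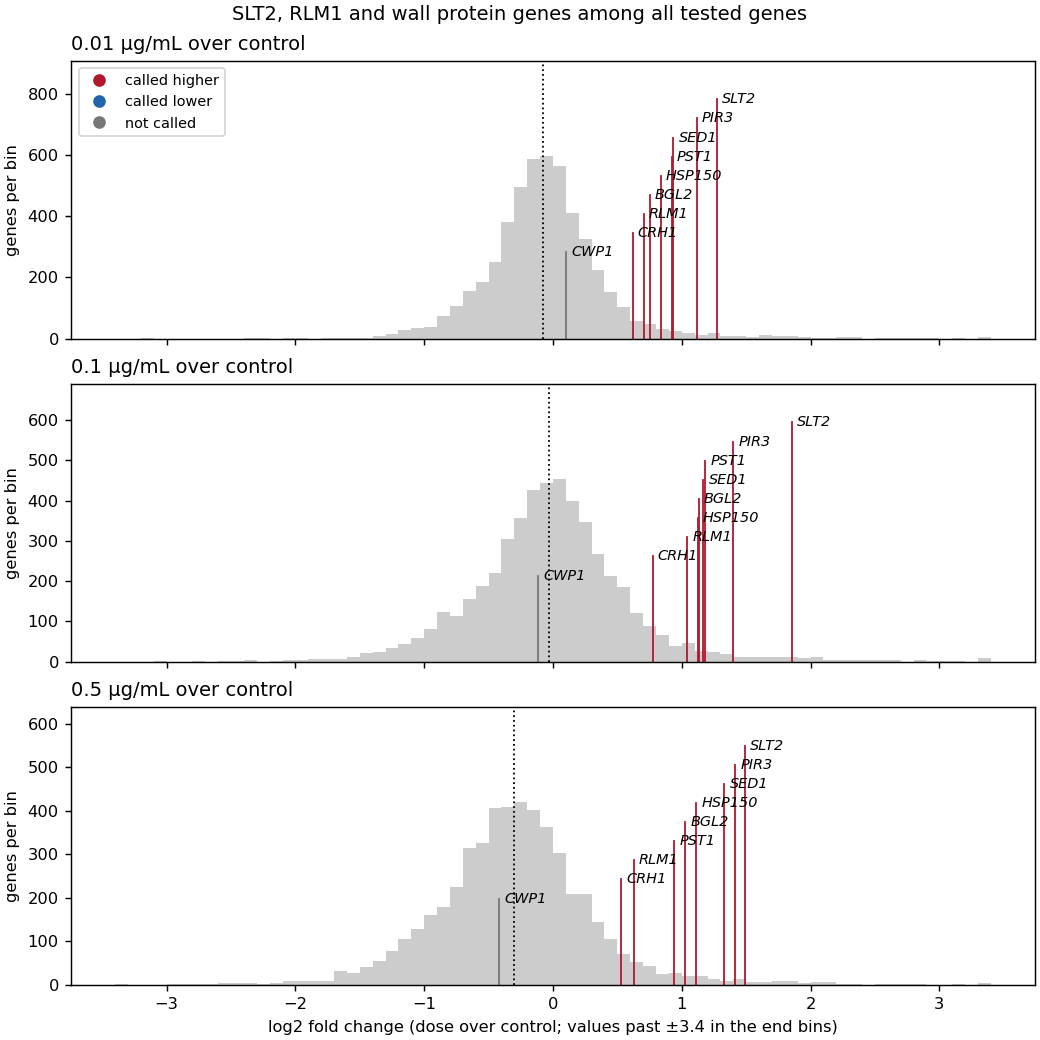
Histograms of the log2 fold change (x axis) of all tested genes at each dose over control, with the number of genes per bin on the y axis; vertical lines mark the 9 genes, red where called higher and grey where not called, and the dotted line is the median of all tested genes. The 8 called genes lie between 0.53 and 1.86 over the 3 doses, while CWP1 lies between -0.42 and 0.10.

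The rest of the pathway was read from lists of genes that act upstream of Slt2, beside it and in the wall. Of 14 tested genes of upstream signalling, 2 were called higher at each dose, and 0, 1 and 2 were called lower. The rises are 14.3% of the list at each dose, against 8.75%, 17.6% and 7.49% of all tested genes. The falls are 0%, 7.14% and 14.3%, against 15.4%, 20.4% and 38.9%. The 2 that rose were the sensor gene MID2 and ROM1, an exchange factor gene for Rho1. ROM1 had 33.5, 43.1 and 33.7 FPKM with rising dose, against 16.1, 16.1 and 16.0 FPKM in the controls of the authors' deposited tables, which is 2.08-fold, 2.68-fold and 2.10-fold. MID2 rose by 0.57, 0.76 and 0.47 on the log2 scale. WSC3, another sensor gene, was the 1 that fell at 0.1 µg/mL (-0.51), and it fell at 0.5 µg/mL (-0.95) together with PKH1, a kinase gene that acts on Pkc1 (-0.44). The kinase genes between sensors and SLT2, which are PKC1, BCK1, MKK1 and MKK2, were not called at any dose, with log2 fold changes between -0.33 and 0.34. The list's median was 0.12, 0.21 and -0.13 with rising dose.

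Genes that act beside Slt2 or take its phosphates off went both ways. Of 9 genes of nuclear factors and feedback, 3 rose at each dose and 1, 3 and 5 fell with rising dose. The falls are 11.1%, 33.3% and 55.6% of the list, against 15.4%, 20.4% and 38.9% of all tested genes. The rises are 33.3% at each dose, against 8.75%, 17.6% and 7.49%. Those that rose were KDX1, SDP1 and PTP2. KDX1, a paralog of SLT2, rose by 0.63, 1.02 and 0.64 on the log2 scale. The phosphatase gene SDP1 had 50.2, 58.3 and 44.0 FPKM with rising dose, against 27.0, 26.9 and 26.9 FPKM in the controls of the authors' deposited tables (log2 fold changes 0.90, 1.12 and 0.71). PTP2, a tyrosine phosphatase gene, rose by 0.67, 1.13 and 0.94. Its paralog PTP3 fell at all 3 doses, to 14.5, 13.9 and 11.0 FPKM against 26.3, 26.2 and 26.2 FPKM in the controls of the authors' deposited tables (log2 fold changes -0.86, -0.92 and -1.25). The phosphatase gene MSG5 and the factor gene SWI4 fell at 0.1 µg/mL (-0.40 and -0.44) and 0.5 µg/mL (-0.60 and -0.62), and KNR4, which takes part in glucan synthesis, and SWI6 fell at 0.5 µg/mL (-0.71 and -0.48). At 0.5 µg/mL these falls stand beside 38.9% of all tested genes called lower.

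Genes that build glucan and chitin were called in both directions. Of 16 tested, 2, 4 and 1 rose with rising dose, which is 12.5%, 25% and 6.25% against 8.75%, 17.6% and 7.49% of all tested genes. The 1, 1 and 3 that fell are 6.25%, 6.25% and 18.8% against 15.4%, 20.4% and 38.9% of all tested genes, and the list medians were 0.05, 0.24 and -0.12. FKS1 and GSC2, the catalytic glucan synthase genes, were not called at any dose, at 0.27, 0.29 and -0.02 for FKS1 and -0.01, 0.22 and -0.16 for GSC2. CHS6, which helps chitin synthase reach the surface, rose at all 3 doses (0.44, 0.75 and 0.42), and the chitin synthase gene CHS1 rose at 0.01 and 0.1 µg/mL (0.55 and 0.79). GFA1, the first enzyme of chitin precursor synthesis, rose at 0.1 µg/mL (0.61), as did KRE9 (0.47). KNH1, a relative of KRE9, fell at all 3 doses (-1.01, -1.15 and -1.42). The other 2 that fell at 0.5 µg/mL were the chitin synthase gene CHS2 (-0.67, q = 0.00136) and SKT5, whose product activates the chitin synthase Chs3 (-0.51, q = 0.0401), by the authors' deposited table.

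Among 14 tested wall remodelling enzyme genes, 2, 4 and 2 rose and 1, 1 and 4 fell with rising dose (medians 0.10, 0.19 and -0.11). The rises are 14.3%, 28.6% and 14.3% of the list, against 8.75%, 17.6% and 7.49% of all tested genes. The falls are 7.14%, 7.14% and 28.6%, against 15.4%, 20.4% and 38.9%. YPS3 and YPS1, neighbouring genes of GPI-anchored aspartyl proteases, rose at all 3 doses. YPS3 had 265, 316 and 264 FPKM with rising dose, against 109.9, 109.6 and 109 FPKM in the controls of the authors' deposited tables, and YPS1 rose by 0.94, 1.21 and 0.86 on the log2 scale. UTR2, also called CRH2, encodes a transglycosylase of the same family as CRH1 and fell at all 3 doses. It had 144, 92.8 and 80.4 FPKM with rising dose, against 329, 328 and 328 FPKM in the controls of the authors' deposited tables (log2 fold changes -1.19, -1.82 and -2.03, q = 0.000608, 0.000329 and 0.000273). CRH1 and UTR2 were thus called in opposite directions at every dose, while CRR1, the third gene of that family, was not called (0.11, 0.24 and 0.17). At 0.5 µg/mL the glucanase gene EXG1 (-0.74), the glucan-elongating gene GAS1 (-0.70) and its relative GAS3 (-0.48) fell as well. At 0.1 µg/mL GAS5 (0.80) and EXG2 (0.49) rose.

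Of 11 tested genes of other wall mannoproteins, the same 4 rose at each dose and PLB2 fell at each dose. The rises are 36.4% of the list, against 8.75%, 17.6% and 7.49% of all tested genes with rising dose. The fall is 9.09% of the list, against 15.4%, 20.4% and 38.9%. NCW2 had 339, 474 and 445 FPKM with rising dose, against 168, 168 and 167 FPKM in the controls of the authors' deposited tables (log2 fold changes 1.01, 1.50 and 1.41). SPI1, a gene induced by weak acids, rose by 1.26, 1.36 and 0.88, TOH1 by 0.84, 1.11 and 0.77, and CCW14 by 0.77, 1.04 and 0.93. PLB2, a phospholipase gene, had log2 fold changes of -0.88, -1.23 and -1.62. The most abundant mannoprotein genes of the list, CWP2 and CCW12, were not called, with CCW12 at -0.15, -0.12 and -0.06.

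Daughter-cell separation genes act when the wall between mother and bud is cut. Of the 8 genes on this list 5 were tested, of which 0 rose at any dose and 3, 3 and 5 fell with rising dose (medians -0.71, -0.89 and -1.31). The falls are 60%, 60% and 100% of the 5 genes, against 15.4%, 20.4% and 38.9% of all tested genes. DSE1 had 256, 159.6 and 90.02 FPKM with rising dose, against 497, 496 and 495 FPKM in the controls of the authors' deposited tables, and DSE3 had log2 fold changes of -0.96, -1.26 and -1.96. AMN1, a brake on mitotic exit, fell at all 3 doses too (-0.71, -0.89 and -1.31). Of 7 tested genes of the osmosensing branch, which uses the MAP kinase Hog1, 0, 1 and 0 rose and 0, 1 and 1 fell. The rises are 0%, 14.3% and 0% of the 7, against 8.75%, 17.6% and 7.49% of all tested genes. The falls are 0%, 14.3% and 14.3%, against 15.4%, 20.4% and 38.9%. The called genes were SSK1 (0.62 at 0.1 µg/mL) and SHO1 (-0.40 and -0.77 at 0.1 and 0.5 µg/mL). HOG1 itself, the counterpart of SLT2, was not called at 0.03, 0.06 and -0.37.

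**Figure D4:**
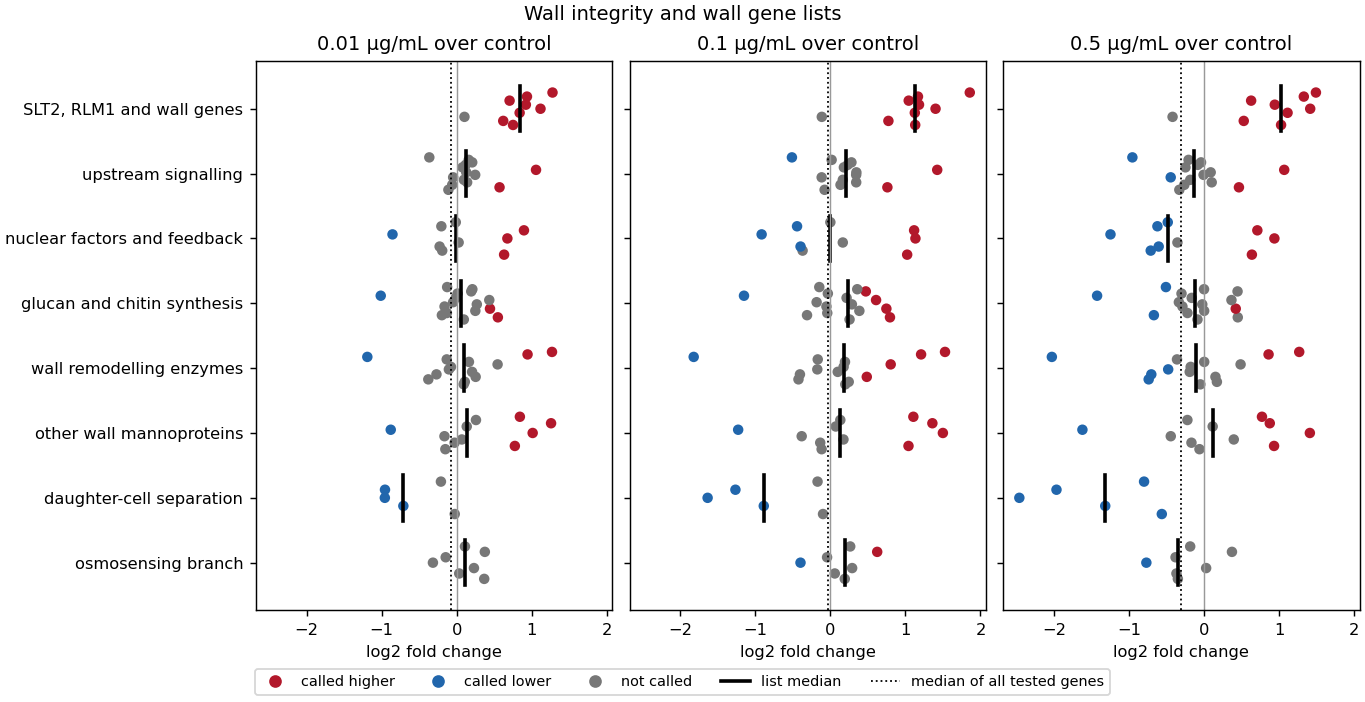
Log2 fold change (x axis) of each tested gene of the 8 lists at each dose over control; points are genes, red where called higher, blue where called lower and grey where not called, short bars are list medians and the dotted line is the median of all tested genes. At all 3 doses the 9 genes in the top row have medians of 0.84, 1.13 and 1.03, and the daughter-cell separation genes medians of -0.71, -0.89 and -1.31.

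The genes of the genome with the Rlm1 consensus upstream were then described in the same way. Of 97 such genes that were tested, leaving out only the 7 of the 10 chosen genes that hold it, 12.4%, 26.8% and 14.4% were called higher with rising dose. Among genes with no consensus these shares were 8.62%, 17.4% and 7.19%. The shares called lower were 10.3%, 16.5% and 32.0% with the consensus and 15.7%, 20.7% and 39.5% without it. Medians of the log2 fold change were -0.03, 0.08 and -0.21 with the consensus and -0.08, -0.03 and -0.31 without it. A site between 2 divergent genes counts for both of them, and no test was made of these shares.

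Called higher at all 3 doses were 15 of 104 tested genes with the consensus (14.4%), of which 6 are RLM1, PST1, HSP150, PIR3, SED1 and BGL2. Over all genes tested at each dose it was 313 of 5041 (6.21%). The other 9, or 9.28% of the 97, were NTH1, CRG1, BAG7, YPS1, PTP2, AFR1, HFD1, CCW14 and MSB3, named after their values were seen. YPS1, PTP2 and CCW14 are also in the lists above, where 7 tested genes held the consensus, of which 3, 4 and 3 rose and 0 fell. The rises are 42.9%, 57.1% and 42.9% of the 7, against 8.75%, 17.6% and 7.49% of all tested genes. Called lower were 15.4%, 20.4% and 38.9% of all tested genes. The lists were chosen with earlier results of these data known, so these shares are no test of the consensus. Of the 7 genes with the consensus that were chosen here, CWP1 alone was not called.

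**Figure D5:**
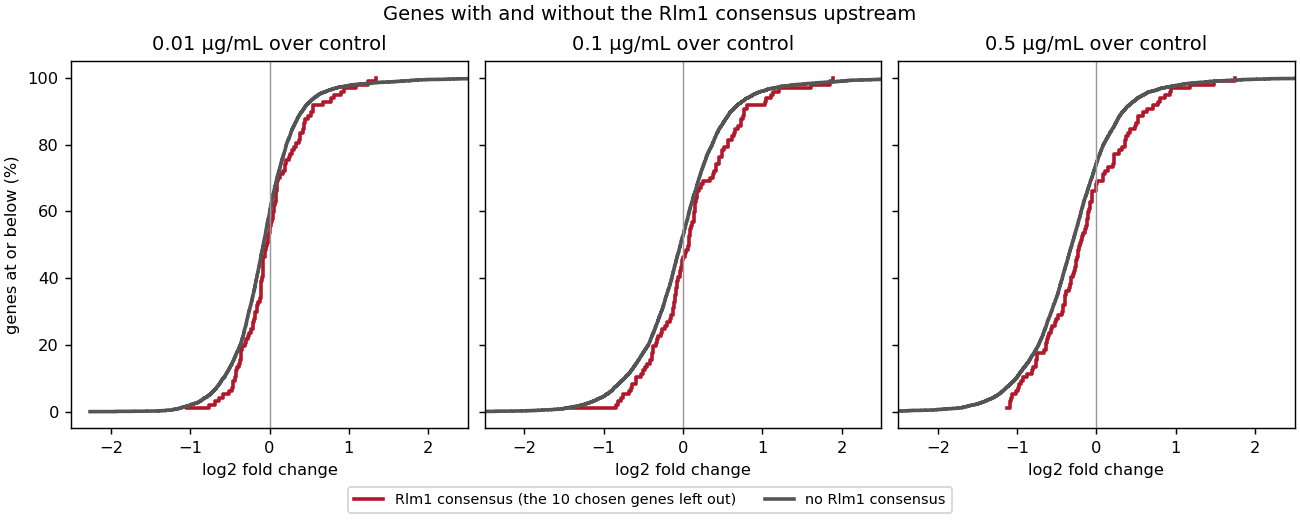
Cumulative share of genes (y axis, %) by log2 fold change (x axis) at each dose over control, for the 97 tested genes with the Rlm1 consensus upstream other than those chosen here (red) and for genes without it (grey). The red curve lies to the right of the grey one over most of its length, with medians of -0.03, 0.08 and -0.21 against -0.08, -0.03 and -0.31.

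By the distance between their 3 log2 fold changes, the genes nearest to SLT2 among 5041 were FMP33 (distance 0.05), NTH1 (0.07) and LSO1 (0.13). The genes nearest to RLM1 were PSK1 (0.01), RCR2 (0.05) and JSN1 (0.07). None of the 6 is on a list used here, and NTH1, a trehalase gene, holds the Rlm1 consensus. The 3 comparisons share the control samples, so this likeness rests on 3 numbers per gene that are not independent.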

How the data were processed

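RNA was measured by sequencing polyA RNA, with TruSeq barcoded libraries per the labels' protocols. The submitters' processing notes name FastQC, Bowtie2, Cuffdiff and build R64. Not given in the sources used here are tool versions, settings, strand use and annotation. Each of the authors' 3 deposited tables sets 1 dose against the control, which the headers name WT and the title lines Control. The levels are taken as FPKM, inferred from the Cuffdiff column names per the file headers, and were pooled over a group by the authors. The log2 fold changes and the q-values (adjusted p-values) were made by the authors and deposited with them. The unit and the pooling allow no new test per gene, so the authors' q below 0.05 made the calls. Log2(dose/control) was recomputed without a pseudocount and checked against the deposited values (largest difference 1.3e-05). Control columns differed between tables by a median ratio of 0.997 and 0.996, so the tables were scaled separately.

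Genes at a level of 0 or a q of 1 were not tested. A few lines of every table had been emptied before this work and were not used here. Genes were matched by symbol or synonym to the RefSeq R64 gene table (SLG1 for WSC1, SMI1 for KNR4), where all 10 chosen genes were found, and upstream sequence came from the RefSeq R64 assembly. Python 3.11.15, pandas 2.3.3 and numpy 2.4.6 were used, and the motif search was tested on simulated data. The genes and lists were chosen with earlier results of these data known. The genes named from each other list were the called genes with the 2 largest rises and the 2 largest falls at each dose, beside further called genes and a few that were not called, which were named to complete a count or a family after their values were seen. The 3 genes nearest to SLT2 and to RLM1 were also named. Alternatives were another q, a minimum change, recentring, rescaling, a pseudocount, a level filter, a common control and the motif window.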

Additional observations from a re-analysis of the deposited data

How the results depend on the processing

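No paired analysis was possible because the tables hold pooled levels of each group and no column for a replicate number. Leaving out each replicate in turn was not run, since there are no values per sample. The depth of the libraries is unknown. With a q below 0.01, 4 of the 9 genes were called higher at 0.01 µg/mL in place of 8. With a change of at least 2-fold as well as q below 0.05, 2 were called higher at 0.01 and 5 at 0.5 µg/mL, and with 2-fold taken relative to the median gene 3 at 0.01 µg/mL. For the 69 tested genes of the 6 other wall lists, 13, 17 and 12 were called higher with rising dose and 7, 10 and 20 lower. The rises are 18.8%, 24.6% and 17.4%, against 8.75%, 17.6% and 7.49% of all tested genes. The falls are 10.1%, 14.5% and 29.0%, against 15.4%, 20.4% and 38.9%. At least 2-fold left 4, 10 and 3 higher and 2, 5 and 7 lower. Counted from the median, 2-fold left 5 and 10 higher at 0.01 and 0.1 µg/mL and 1, 5 and 6 lower. A minimum change removes calls by construction, and the share of all tested genes that passes these stricter rules was not counted. Of the fold changes of single genes 193 of 216 comparisons kept their call or lack of one, 23 lost a call and 0 changed sign. The 23 losses came from the stricter q and the minimum changes. Most of the 193 were under settings that could not remove a call, so they do not measure how firm the calls are. Recentring, rescaling, the pseudocount and the common control kept the authors' q and could alter only directions, and they altered 0 for the 9 genes. In a window of 300 bp, chosen after seeing the data, 3 of the 10 genes held the Rlm1 consensus (1.18% of all windows), since 4 of the matches lie farther upstream or on its edge. In a window of 1000 bp 7 did (3.10%).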
